A study of Mus musculus with 15 samples.

Results

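The regions described here were 281 promoters that carried a short stretch of H3K27Me3 in the pancreatic islets of mice on each of 3 diets and no H3K27Ac on any of them. They were chosen from the peak calls themselves. Peaks of the 3 H3K27Me3 lists that overlapped by at least 1 bp were joined on chromosomes 1 to 19, which gave 25197 regions. Of these, 8598 held a peak of every diet, 1144 of the 8598 lay within 1000 bp of the start site of a protein-coding gene, and 548 of the 1144 were shorter than 2000 bp. Removal of the 267 that overlapped an H3K27Ac peak of any diet left the 281, so presence in every diet, length, promoter position and lack of H3K27Ac are properties of the choice and not findings. They served 288 genes, which was 1.38% of the 20807 protein-coding start sites examined, and 7 regions lay at the start sites of 2 genes each.

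Islets were isolated from male CBA mice that ate a regular diet (RD), a high-fat diet (HFD) or the high-fat diet with the AMPK activator O304 mixed into it (HFD-O304), adult when the diets began and with no genetic change named in the labels. Chromatin of about 600 pooled islets was precipitated with an antibody to H3K27Me3 or to H3K27Ac, with 2 replicates for each mark and diet. The replicates were merged by the authors before peaks were called, so every value below is 1 number per diet, with no spread between replicates and no test between diets. The fragments kept for H3K27Me3 numbered 74870300 on RD, 54166902 on HFD and 57324419 on HFD-O304, after removal of 45.7%, 55.0% and 56.9% of fragments as duplicates. At 8 marker genes of beta cells, an H3K27Ac peak lay at the promoters of 5 on RD, 6 on HFD and 5 on HFD-O304, Mafa, Nkx6-1, Pdx1 and Ucn3 among them on every diet, whereas none of 5 acinar, 6 macrophage and 6 fibroblast markers had one. Of 5 ductal markers 1 had such a peak on HFD and 1 on HFD-O304, of 7 endothelial markers 1 on RD, and of 4 neuron and glia markers 1 on every diet (Tubb3). Islets hold several cell types, and in such bulk chromatin a mark on fewer cells cannot be told apart from less of the mark per cell.

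H3K27Me3 is written by Polycomb repressive complex 2, which gathers at unmethylated CpG islands of genes that a cell type does not use. H3K27Ac sits on the same lysine and marks active promoters and enhancers, so that a histone tail carries only one of them. At master regulators of development the repressive mark commonly spreads over many kilobases, while at other silent CpG island genes it stays close to the start site. In beta cells Polycomb is known to keep genes of other lineages silent.

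The sequences below show the base composition under the mark. Each is the stretch of 150 bases at the centre of the part called on every diet, read from the GRCm38 reference (a C57BL/6J genome, not CBA) on the strand of the gene. Capitals mark each CG dinucleotide. None of them lies in a UTR. Rbmxl2 had the strongest region, the next 3 are at developmental and signalling genes, and the last 2 show the internally repetitive sequence found at several of the strongest regions.
Rbmxl2 (chr7:107209907-107210056, plus strand, coding exon): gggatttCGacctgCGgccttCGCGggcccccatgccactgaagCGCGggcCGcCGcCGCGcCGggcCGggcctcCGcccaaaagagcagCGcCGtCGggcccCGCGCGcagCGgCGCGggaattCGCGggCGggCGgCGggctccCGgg
Olig3 (chr10:19357224-19357373, plus strand, coding exon): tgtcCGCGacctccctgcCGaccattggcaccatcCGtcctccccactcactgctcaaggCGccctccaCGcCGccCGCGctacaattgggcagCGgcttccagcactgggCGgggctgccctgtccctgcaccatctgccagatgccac
Sfrp1 (chr8:23411865-23412014, plus strand, coding exon): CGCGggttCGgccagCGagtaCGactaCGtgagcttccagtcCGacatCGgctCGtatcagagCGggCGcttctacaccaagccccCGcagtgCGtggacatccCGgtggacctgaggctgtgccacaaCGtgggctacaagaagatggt
Ntn1 (chr11:68399915-68400064, minus strand, intron): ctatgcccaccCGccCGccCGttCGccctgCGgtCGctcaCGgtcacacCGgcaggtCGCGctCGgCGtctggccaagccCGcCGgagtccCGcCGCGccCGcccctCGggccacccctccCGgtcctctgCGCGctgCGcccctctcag
Tex36 (chr7:133602735-133602884, minus strand, outside genes): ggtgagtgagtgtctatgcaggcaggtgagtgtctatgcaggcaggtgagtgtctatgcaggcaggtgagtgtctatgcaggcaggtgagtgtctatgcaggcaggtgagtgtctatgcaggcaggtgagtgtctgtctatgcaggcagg
Krtap4-16 (chr11:99851147-99851296, minus strand, coding exon): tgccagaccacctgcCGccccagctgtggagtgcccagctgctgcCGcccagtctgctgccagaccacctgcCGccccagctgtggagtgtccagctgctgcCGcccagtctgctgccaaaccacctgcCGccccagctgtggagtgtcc
The 150 bases held 28 CG in Rbmxl2, 23 in Ntn1, 15 in Sfrp1 and 11 in Olig3. The stretch at Tex36 held 0 and repeated a short unit from end to end, and that at Krtap4-16 held 5 in repeats of its coding sequence.

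The mark sat just inside the gene. The midpoint of a region lay downstream of the start site in 235 of the 281 (83.6%, 95% Wilson interval 78.9 to 87.5), with a median offset of 338.5 bp and quartiles of 119 and 603 bp, and the start site itself was inside the region in 212 (75.4%). The midpoint fell in an intron in 95 regions, in a UTR in 73, in a coding exon in 61, in a noncoding exon in 6 and outside genes in 46. Broad promoter regions without H3K27Ac, which were 2000 bp or longer, lay downstream in 74.4% of 347 (69.5 to 78.7) with a median offset of 644.5 bp. Promoter regions with both marks lay downstream in 78.7% of 516 (74.9 to 82.0). These intervals take regions as independent and cover only counting error.

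At 200 bp past the start site an H3K27Me3 peak covered 60.5% of the 281 regions on RD, 70.5% on HFD and 75.8% on HFD-O304. The CpG density of the 288 genes was highest at 100 to 200 bp past the start, at 7.57 CG per 100 bases, against 0.997 at 2000 bp before it. Peak and CpG density thus had their highest points at nearly the same distance, in regions that the rule had placed at start sites. CpG density was highest just past the start in other genes too. It reached 7.82 at 100 to 200 bp in the genes of broad regions and 6.18 at 0 to 100 bp in all 20807 genes. Between 500 and 2000 bp downstream the genes of broad regions kept a higher CpG density than the genes of the narrow ones.

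**Figure D1:**
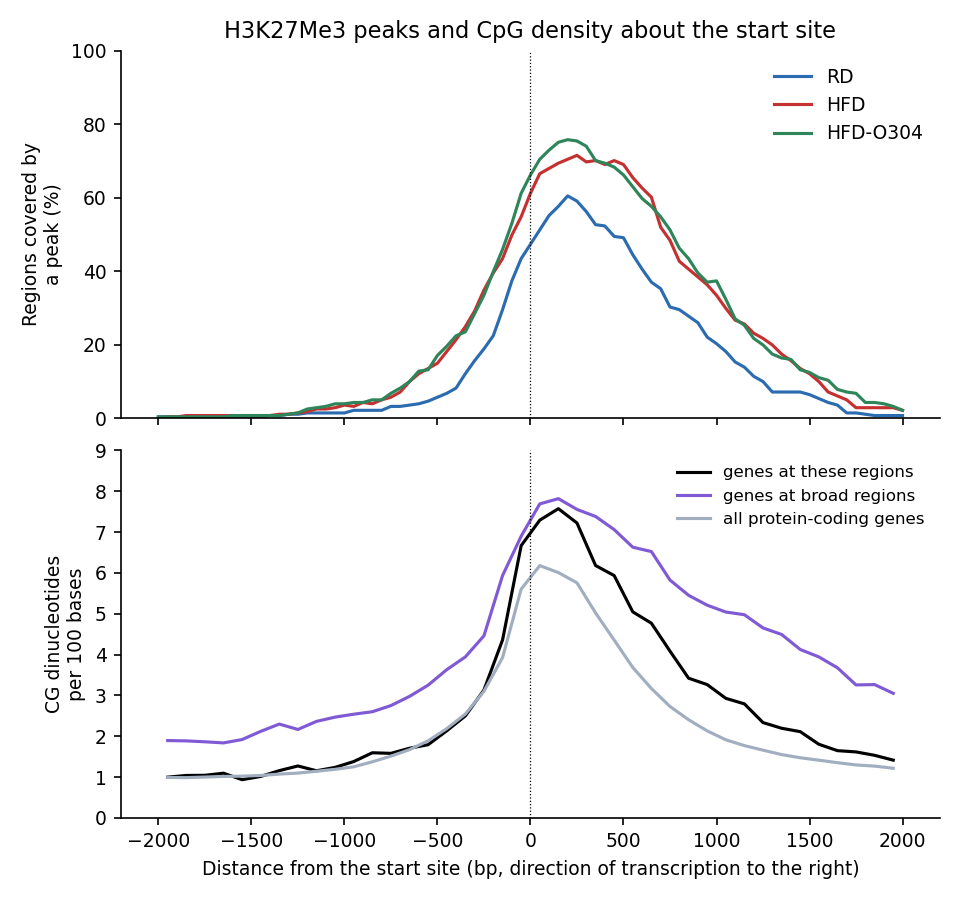
Share of the 281 regions covered by an H3K27Me3 peak of each diet (upper, %) and mean number of CG dinucleotides per 100 bases (lower) against distance from the start site in bp, with transcription to the right. Coverage stands at 60.5% on RD, 70.5% on HFD and 75.8% on HFD-O304 at 200 bp, and CpG density reaches 7.57 at the genes of these regions.

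The sequence under the mark was rich in G and C. The median GC content was 60.6% and 273 of the 281 regions (97.2%) reached 50%. Other marked regions were GC-rich too. Their median was 56.5% in broad promoter regions, 60.7% in promoter regions with H3K27Ac and 58.0% in narrow regions away from promoters. Over all 8598 regions it was 57.7%. A region was called CpG-rich at a GC content of at least 50% and an observed over expected CpG of at least 0.6, and 154 of the 281 were (54.8%, 49.0 to 60.5). The share was 46.7% (41.5 to 51.9) in the 347 broad promoter regions, 55.6% (51.3 to 59.8) in the 516 promoter regions with H3K27Ac and 12.8% (11.7 to 14.0) in 3178 narrow regions away from promoters. The 3 promoter classes were therefore close together and the distal class far below them. The threshold matters for the level: the median observed over expected CpG was 0.610, so many regions lay near the limit, and a limit of 0.75 left 17.8%. Sequence that was at least 50% repeat-masked was found in 5 of the 281 regions (1.78%), against 81.5% of the narrow distal ones.

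Between 250 bp before and 50 bp after the start sites, the 288 genes held a median of 15.5 CG (quartiles 8 and 23), those of broad regions 17 and all 20807 genes 12. Short motifs were searched on both strands of the same 300 bases. The GC box GGGCGG was present in 53.5% of the 288 (47.7 to 59.1), in 54.1% of the genes of broad regions and in 43.7% of all genes. The CCAAT box, searched as CCAAT, was present in 35.1% of the 288 (29.8 to 40.7), in 47.0% of the genes of broad regions (41.9 to 52.1) and in 38.6% of all. The TATA box TATAAA was found in 9.03%, 11.3% and 12.7% of the same 3 sets, the E-box CAGCTG in 16.0%, 14.0% and 15.5%, and the cAMP response element TGACGTCA in 1.04%, 2.47% and 2.43%. The GC box was thus about as common at narrow as at broad regions, and the CCAAT box less common there than at broad ones by intervals that did not overlap.

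The distance to other marked chromatin varied widely. The nearest H3K27Ac peak of any diet lay a median of 43748 bp away, within 1000 bp in 3 regions (at Clstn2, Drd2 and Rab30), within 10000 bp in 33 and within 50000 bp in 149. The nearest broad H3K27Me3 region lay a median of 450771 bp away, within 10000 bp in 26 regions and within 5000 bp in 18. The closest were at Sall3 (754 bp), Ltbp4 (1136 bp), G530012D18Rik (1202 bp), Kremen2 (1236 bp), Zfp503 (1291 bp) and Zfp978 (1328 bp). Those narrow regions were separate calls beside a longer marked stretch.

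The enrichment was low, here as in the other promoter classes. The fold enrichment of a peak is the ratio of its mean coverage plus 1 to the genome-wide background plus 1, and its median over the 281 regions was 2.75 on RD (range 2.53 to 4.02), 3.18 on HFD (2.76 to 4.95) and 3.13 on HFD-O304 (2.72 to 5.04). In the same order the medians were 2.83, 3.34 and 3.28 in broad promoter regions and 2.87, 3.35 and 3.26 in those with H3K27Ac. Over all 8598 regions they were 3.07, 3.35 and 3.44. The lowest fold in each whole list was 2.53, 2.76 and 2.69, so the medians of the 281 stood little above what could be called at all. In 151 of the 281 regions (53.7%) the fold on RD did not reach the lowest one of the HFD list. A −log10 q of at least 5 was reached by 18 regions on RD, 65 on HFD, 61 on HFD-O304 and 8 on every diet.

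Among those 8 were the regions at Rbmxl2, Olfr172, Krtap4-16, Tex36, Gm10153, Olfr641 and Hmcn1. Rbmxl2, an intronless gene for an RNA-binding protein of male germ cells, had the highest lowest fold, with 4.02 on RD, 4.95 on HFD and 5.04 on HFD-O304 and called lengths of 1420, 1675 and 1559 bp. Its region was also among the most CpG-dense, with an observed over expected CpG of 1.08 and a GC content of 68.7%. The large extracellular matrix protein gene Hmcn1 had 3.13, 3.49 and 3.51 in the same order.

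Of the 8, 5 lay on sequence that occurs more than once. Each region was cut into overlapping words of 31 bases, and a word was counted as repeated when it occurred more than once in the genome, on either strand. This measure and its limits were chosen after the values had been seen. In 19 of the 281 regions at least 50% of the words were repeated or fewer than 80% of words of 12 bases were distinct within the region. They included the regions at Olfr172 (100% of words repeated), Olfr641 (100%), Gm10153 (98.8%), Tex36 (73.7%) and Krtap4-16 (43.5%, with 51.5% of short words distinct). At Tex36, named for testis expression, the folds were 3.50, 4.56 and 4.13 (RD, HFD, HFD-O304), and at the hair keratin-associated gene Krtap4-16 they were 3.51, 3.71 and 3.89. At the olfactory receptor gene Olfr172 they were 3.98, 3.78 and 3.99 over a region of 394 bp, the shortest of all, which lay wholly in repeat-masked sequence with its midpoint at -1145.5 bp from the start site. Reads from such sequence can be placed at more than 1 copy, so the position of the mark there is uncertain, and the part of read placement in these values was not tested.

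The 19 regions had a median lowest fold of 2.88 and a median observed over expected CpG of 0.257, and 2 of them were CpG-rich. The other 262 had medians of 2.74 and 0.622, and 152 were CpG-rich, which was 58.0%. In the plot of CpG content, the strongest regions thus stood at both ends, with Rbmxl2 among the most CpG-dense and Tex36 and Gm10153 at 0.

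**Figure D2:**
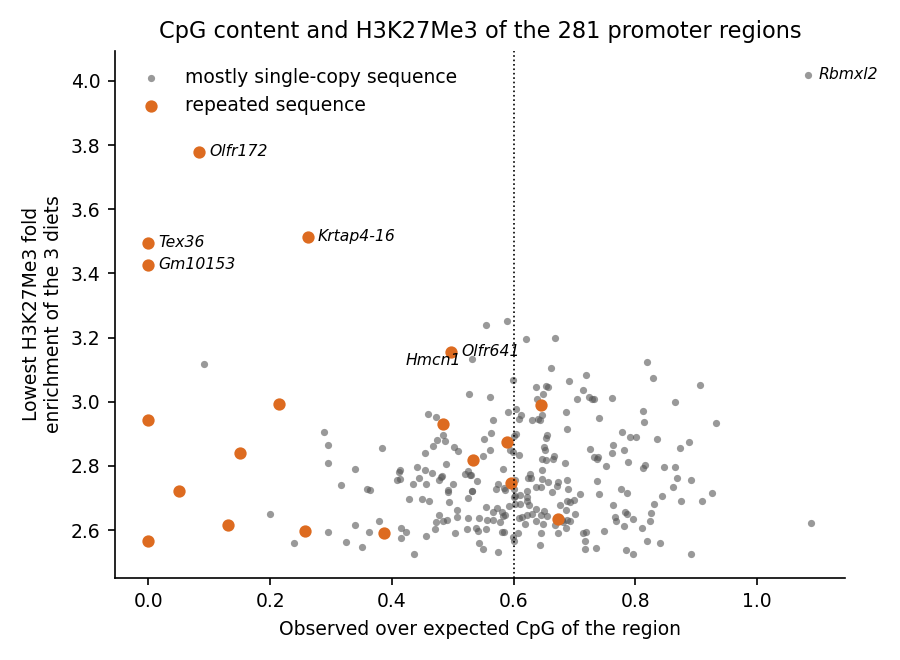
Lowest H3K27Me3 fold enrichment of the 3 diets against observed over expected CpG for the 281 regions, 1 point per region, with the 19 of repeated sequence in orange and the limit of 0.6 dotted. Rbmxl2 stands at 1.08 and 4.02, while Tex36 and Gm10153 stand at 0 with lowest folds of 3.50 and 3.43.

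Developmental transcription factors had 28 narrow regions among 490 genes (5.71%), a smaller share than at broad regions. Of 195 homeobox genes 10 had a narrow region (5.13%, 2.81 to 9.18) and 100 a broad one without H3K27Ac (51.3%). Of 297 other developmental transcription factors 18 had a narrow region (6.06%, 3.87 to 9.38) and 71 a broad one (23.9%). Both shares of narrow regions were above the 1.38% of all genes. A broad region without H3K27Ac lay at 364 of all 20807 genes (1.75%). The 28 regions of these factors were CpG-rich in 17. The lists were drawn up by gene symbol with earlier results of these data known, and members of a family or cluster are not independent.

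The homeobox genes included Dlx3, Hhex, Hoxb1, Hoxb6, Hoxc12, Lhx4, Meox2 and Pou4f3. Hoxc12, of the posterior Hox genes, had folds of 2.94 on RD, 3.26 on HFD and 3.70 on HFD-O304, and its called length was 547, 758 and 1403 bp. Hoxb6 had 2.79, 3.04 and 3.24 with 378, 1600 and 415 bp called. The called length thus varied more between lists than the fold did at these genes. Hhex, the factor that maintains delta cells, had folds of 2.80, 3.71 and 3.14 and a GC content of 68.3%, and was the only one of 9 markers of alpha, delta and other endocrine cells to have a narrow region.

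Among the other factors, Tcf21 of mesenchyme had folds of 3.47, 3.66 and 3.20 in RD, HFD and HFD-O304. Olig3, of neural progenitors, had 3.44, 3.20 and 3.31, and Foxe3, of the lens, had 3.12, 3.60 and 3.22. Tfap2e, Foxi3, Tbx21 and Ikzf3 followed, the last 2 being factors of lymphocytes. Sox10, the neural crest and glial factor, had 2.68, 3.08 and 3.01. These are regulators of lineages other than the endocrine pancreas. None of the 8 beta cell markers had a narrow region, and of the markers of cell types outside the endocrine pancreas only Sox10 did.

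Secreted signals had 13 narrow regions among 201 genes (6.47%, 3.82 to 10.7) and 21 broad ones (10.4%). They were Bmp8b, Dkk3, Fstl1, Lefty2, Nodal, Ntn1, Rspo2, Sfrp1, Slit1, Spock3, Wnt16, Wnt3a and Wnt9b. Ntn1, the axon guidance cue netrin, had folds of 3.08 on RD, 3.60 on HFD and 3.21 on HFD-O304. Sfrp1, a secreted Wnt antagonist, had 2.98, 3.20 and 2.94. Rspo2, which amplifies Wnt signalling, had 3.01, 4.58 and 4.61. Lefty2, an inhibitor of Nodal, had 2.79, 2.79 and 2.81, and Nodal itself had 2.57, 3.37 and 3.03. Agonists and inhibitors of Wnt and of Nodal were therefore both present. Of 105 receptors of growth factors and guidance cues 3 had a narrow region, namely Flt3, Plxnd1 and Epha3.

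Ion channels and G protein-coupled receptors had more narrow than broad regions by count. The channels had 11 of 256 (4.30%, 2.42 to 7.53) against 5 broad (1.95%), and G protein-coupled receptors other than chemoreceptors had 15 of 313 (4.79%, 2.93 to 7.76) against 10 (3.19%). The interval of the narrow share held the broad share in the receptors but not in the ion channels. The broad shares rest on 5 and 10 genes and were given no interval, so a difference between narrow and broad was not tested. Over all genes the shares were 1.38% narrow and 1.75% broad. The channels included the ryanodine receptors Ryr2 and Ryr3, the glutamate receptor subunits Grin2b and Grin3a, and the potassium channels Kcnj10, Kcnk4, Kcnk5 and Kcng2, and 10 of the 11 regions were CpG-rich. The receptors included Drd2 of dopamine, Ghsr of ghrelin, Hcrtr1 of orexin, Htr5b and Htr7 of serotonin, and Sstr1 and Sstr5 of somatostatin, and 5 of the 15 were CpG-rich. Sstr5 had folds of 2.65, 3.22 and 3.48 in RD, HFD and HFD-O304, and Hcrtr1 had 3.07, 3.56 and 3.21. Solute carriers and metabolising enzymes had 16 of 688 (2.33%), with the carriers of dopamine (Slc6a3) and glutamate into vesicles (Slc17a6) among them.

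Cell adhesion and synapse genes had 10 of 214 (4.67%, 2.56 to 8.39) against 13 broad (6.07%). Germ cell genes had 5 of 362 (1.38%). Zinc finger genes had 4 of 460 (0.870%), immune genes 5 of 701 (0.713%), keratins 1 of 162, chemoreceptors 2 of 1507 (0.133%) and replication-dependent histone genes 0 of 67, which allows a share of up to 5.42% by the Wilson interval. Both chemoreceptors and the keratin gene were among the regions of repeated sequence. Of 37 genes that beta cells keep silent (disallowed genes), 4 had a broad region (10.8%, against 1.75% of all genes). A narrow region lay at 1 of the 37 (2.70%, 0.479 to 13.8). This gene was Ccn2, of a matricellular protein, with folds of 2.68, 3.01 and 2.99.

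**Figure D3:**
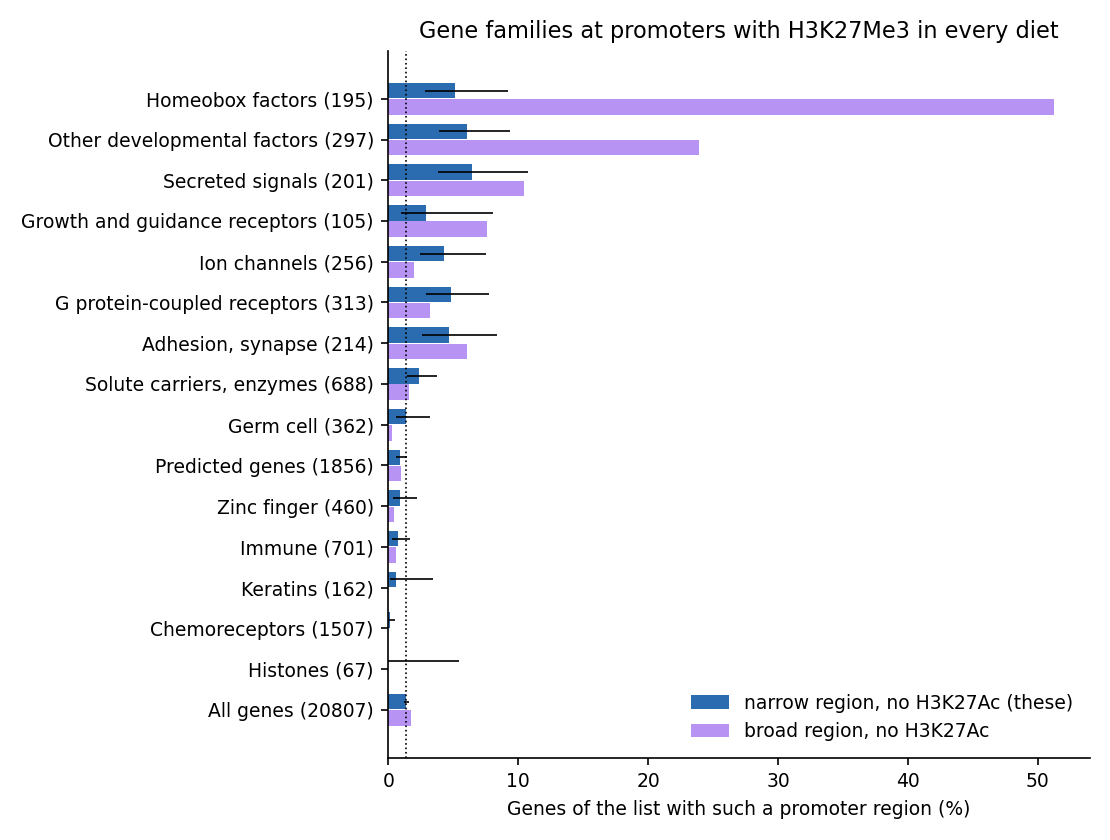
Percentage of the genes of each family (number of genes in brackets) with a narrow H3K27Me3 promoter region without H3K27Ac on every diet (blue, with 95% Wilson interval) or with a broad one (violet), and the 1.38% of all genes dotted. Homeobox genes reach 5.13% narrow and 51.3% broad, and ion channels 4.30% narrow and 1.95% broad.

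The bases called within a region differed between the lists. The median called length was 547 bp on RD, 901 bp on HFD and 985 bp on HFD-O304, or 49.5%, 81.2% and 85.0% of the joined region. More bases were called in HFD than in RD in 218 regions (77.6%), against 52.0% of all 8598 regions called on every diet, 91.1% of the broad promoter regions and 75.8% of the promoter regions with H3K27Ac. HFD-O304 had more than HFD in 153 (54.4%, against 65.4%) and more than RD in 223 (79.4%, against 68.8%). The shortest calls were thus in RD, the deepest list with the lowest calling limit. In 11 regions no single base was called on every diet, Sstr1, Wnt3a, Htr5b, Chl1 and Igfbp5 among them, so those counted as constitutive only through the joining.

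**Figure D4:**
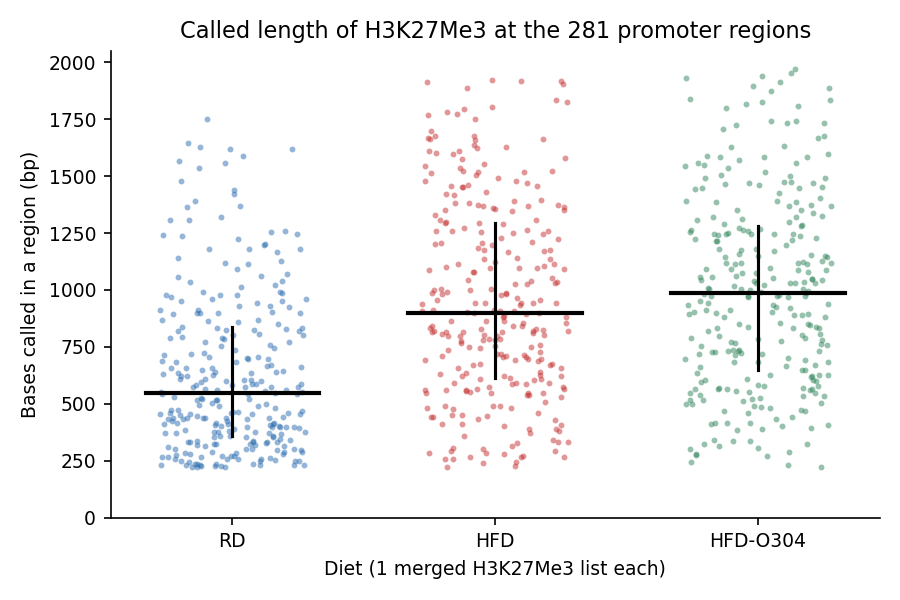
Bases called as H3K27Me3 (bp) in each of the 281 regions, 1 point per region, for the merged list of each diet, with the median as a horizontal bar and the quartiles as a vertical bar. Medians stand at 547 bp on RD, 901 bp on HFD and 985 bp on HFD-O304.

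To compare levels, the mean coverage of the called part was divided by the kept fragments and multiplied by 10000000 (written as coverage per 10 M). Its median over the 281 regions was 3.50 fragments per base on RD, 4.28 on HFD and 4.09 on HFD-O304, with calling limits of 3.21, 3.69 and 3.49. The ratio of HFD to RD had a median of 1.22 (quartiles 1.14 and 1.31) and was above 1 in 273 regions (97.2%), against 85.1% of all 8598. The other promoter classes were alike in this, with 99.7% above 1 and a median of 1.25 in the broad regions and 96.7% and 1.23 in those with H3K27Ac. The ratio of the calling limits alone was 1.15, and the median ratio of all 8598 regions was 1.14, which is 0.19 on the log2 scale. Set against that median, 211 of the 281 (75.1%) were higher, and the median of all 281 was 1.06 times it. HFD-O304 over RD had a median of 1.16 against 1.15 for all regions, with 262 regions above 1 (93.2%, against 88.1%). HFD-O304 over HFD had 0.957 against 1.00, with 85 regions above 1 (30.2%, against 50.5%). The counting error of a single region, as the standard error of the log2 ratio of HFD to RD, had a median of 0.24. Each list was averaged over its own called bases, so a ratio compares partly different bases, which the counting error does not cover. The parts of sequencing depth, duplicates, calling limit and unlike called bases in these ratios were not tested.

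Few single regions passed a ratio of 1.5. HFD was at least 1.5-fold above RD in 3 regions, at Slc25a21, Rspo2 and Rxrg (1.07%, against 1.84% of all 8598), and in 0 at least 1.5-fold below (against 0.0116%). HFD-O304 was past 1.5-fold above RD in 3, at Slc25a21, Rspo2 and Slc5a7 (against 2.16%), and past 1.5-fold from HFD in 0 (against 0.326% above and 0.314% below). The counts of regions were thus near or under the background. After scaling by the median of all regions, 0 passed 1.5-fold in either comparison with RD, these genes included. With 1 list per diet, past the fold is all that these counts mean.

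At Slc25a21, a mitochondrial carrier gene, the coverage per 10 M was 3.21 on RD, 5.36 on HFD and 5.11 on HFD-O304. RD was at the calling limit there. The ratio of HFD to RD was 1.67 with a 95% counting interval of 1.12 to 2.50. At Rspo2 the coverage was 3.84, 6.24 and 6.12, and the ratio 1.62 (1.15 to 2.30). At both genes the coverage on HFD and HFD-O304 was close and above RD, over called parts of unlike length. These were 277, 817 and 791 bp at Slc25a21 and 470, 433 and 1313 bp at Rspo2 (RD, HFD, HFD-O304). At Rxrg, a nuclear receptor of retinoids, the values were 3.32, 4.99 and 4.01 and the ratio was just past 1.5, with an interval of 1.01 to 2.22. The median ratio of all 8598 regions, 1.14, lay inside the intervals at Slc25a21 and Rxrg and just below that at Rspo2. Of the 281 intervals of HFD over RD, 55 lay wholly above 1, 0 wholly below 1 and 3 wholly above 1.14. Among 281 intervals at 95%, a few such cases arise from counting error alone. The intervals of all 8598 regions were not counted, so no background share stands beside these counts.

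Ryr3 and the chemokine gene Cxcl2 had their highest value on HFD, with RD and HFD-O304 close together below it. Ryr3 had 3.48 fragments per base per 10 M on RD, 5.19 on HFD and 3.72 on HFD-O304, a ratio of HFD to RD of 1.49 (1.16 to 1.91) and of HFD-O304 to HFD of 0.717 (0.531 to 0.968). Cxcl2 had 3.49, 5.22 and 3.77, with ratios of 1.49 and 0.722 (0.477 to 1.09). Bcat1, which starts the breakdown of branched-chain amino acids, had 3.60, 5.32 and 3.96, with 0.743 (0.571 to 0.968) for HFD-O304 over HFD. None of them passed 1.5-fold, and they were named as extremes of the 281. Of the 281 counting intervals of HFD-O304 over HFD, 4 lay wholly below 1 and 0 wholly above it. A few such cases arise from counting error alone, and the same count over all regions was not made. Intervals of genes picked as extremes cannot be read as those of genes chosen beforehand.

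At the other end, Olig3 had 4.41 on RD, 4.31 on HFD and 4.34 on HFD-O304, with the lowest ratio of HFD to RD, 0.976 (0.749 to 1.27). Acpp, Inf2, Pcnx2, Dbndd1 and Gldn lay between 0.979 and 0.984. Slc5a7, the choline transporter, had the highest ratio of HFD-O304 to HFD, with 3.51, 4.12 and 5.41 and a ratio of 1.31 (0.831 to 2.07), followed by Prtg and Kcp at 1.21 each. The counting intervals of all these ratios held 1.

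**Figure D5:**
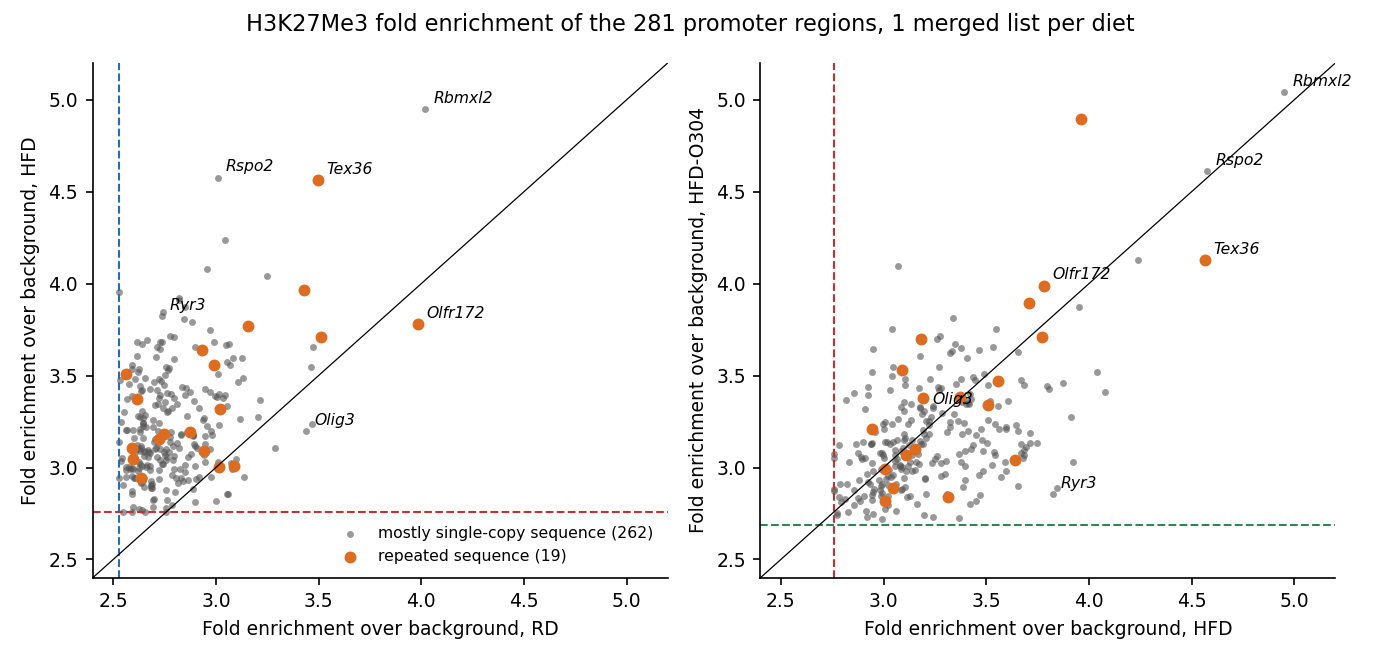
H3K27Me3 fold enrichment of the 281 regions in HFD against RD (left) and in HFD-O304 against HFD (right), 1 point per region, with the 19 of repeated sequence in orange, the lowest fold of each list dashed and equality as a solid line. Most points lie close to the dashed limits of 2.53, 2.76 and 2.69, and Rspo2 stands at 3.01 on RD, 4.58 on HFD and 4.61 on HFD-O304.

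The rule held a length limit of 2000 bp. Just inside it lay Chl1 with 1984 bp, Otop1 with 1978 bp and Slc6a7 with 1977 bp. Just outside lay Hrh1 with 2013 bp, Gpc5 with 2014 bp and Gja1 with 2019 bp. The folds in RD were 2.69, 2.83 and 2.78 inside and 3.04, 3.21 and 2.87 outside. Of narrow promoter regions without H3K27Ac, 281 were called on every diet, 244 in HFD-O304 only, 223 in HFD and HFD-O304, 113 in HFD only, 46 in RD only, 45 in RD and HFD-O304 and 26 in RD and HFD.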

How the data were processed

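Chromatin immunoprecipitation sequencing was done by the authors for H3K27Me3 and H3K27Ac in 12 samples, with 3 input samples not used here. Reads were mapped to GRCm38 with bowtie2, replicates were merged, and broad peaks were called with MACS 2.1.2 (paired fragments, q-value cutoff of 0.01 per the file headers, uniform background, no control). The 6 deposited lists give for each peak a length, a coverage signal (mean pileup, fragments per base), a fold enrichment ratio and −log10 p and −log10 q. Where a list had several peaks in a region, fold and pileup were averaged with their lengths as weights. Pileup was divided by the kept fragments in the header. Start sites were those of GENCODE vM21 gene records, and bases were read from GRCm38 with Python 3.11.15 and pandas 2.3.3. Counting intervals took fragments as independent and cover counting error only. The members and gene lists were chosen with earlier results of these data known. Named genes were the 12 highest by lowest fold, the extremes of each ratio, up to 8 members of the developmental, signal and marker lists, and those at the length limit; members of other lists were named as examples after their values were seen. As a check of the code alone, 992 simulated regions with members set by the same rule gave 130 of 130 members and 0 false ones. It does not measure how well the rule works on real peaks. Some genes that the rule names are not reported here.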

Additional observations from a re-analysis of the deposited data

How the results depend on the processing

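No paired analysis was possible because each list came from both replicates together, which also kept any single replicate from being left out. The direction of the median ratios was computed under 5 alternatives (the deposited fold, scaling by the median, the highest pileup of a region, no repeated sequence and the common fold limit in every diet) and was reversed in none of them. The highest pileup left all 3 medians as they were (1.22, 0.957 and 1.16), so it was no separate check. With length limits of 1500 and 3000 bp the transcription factor genes numbered 15 and 57, and the wider limit put 8 regions past 1.5-fold in HFD over RD. That count was 5 with a window of 2000 bp. With the start of every transcript 5 regions passed in HFD over RD and 5 in HFD-O304 over RD. Peaks with −log10 q of at least 5 left 8 regions, 12.5% of them CpG-rich, 1 transcription factor gene and 0 regions past 1.5-fold in either comparison with RD. A fold limit common to the 3 lists left 127 regions, 18 such genes and 1 region past 1.5-fold in each comparison with RD. When only H3K27Ac peaks with −log10 q of at least 5 counted, 476 regions remained without H3K27Ac, and 10, 1 and 6 regions passed 1.5-fold in HFD over RD, HFD-O304 over HFD and HFD-O304 over RD. On the deposited fold scale the 3 median ratios were 1.15, 0.984 and 1.13. After scaling by the median of all regions they were 1.06 for HFD and 1.01 for HFD-O304 over RD, with 0 and 0 regions past 1.5-fold. The CpG-rich share was 66.5% under the RD peaks alone and 17.8% with a limit of 0.75. Alternatives chosen after seeing the data were the removal of the 19 regions of repeated sequence, which left 262 regions, 58.0% of them CpG-rich and 28 transcription factor genes among them, and the restriction to regions above the common fold limit, with medians of 1.17 for HFD and 1.13 for HFD-O304 over RD.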
